A study of Mus musculus with 8 samples.

Results

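Of the 16617 autosomal ASXL1 islands narrower than 20000 bp in wild-type mesenchymal cells, 739 met no wild-type island of H3K4me2, H3K4me3 or H3K27me3. This is 4.45% (95% exact Clopper-Pearson interval 4.14 to 4.77), and the series holds 17419 ASXL1 islands in all, 17065 of them on autosomes. An island is a stretch of enriched signal called by SICER on a grid of 200 bp. The 739, called unmarked here, were chosen by their measured width and by the absence of any overlap with the islands of the 3 marks in wild type, so both are described without a test. A further 11 unmarked autosomal islands reached the width limit and 4 unmarked islands lay on the X chromosome, and neither set is counted among the 739.

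The study profiled mesenchymal stem/progenitor cells grown from the bone marrow of mice by chromatin immunoprecipitation and sequencing. The cells were Asxl1-/- or wild type, both of the C57BL/6 background and at passages 5 to 10. The 3 histone marks have 1 list each in Asxl1-/- cells and 1 each in wild-type cells, and ASXL1 has 1 list, in wild-type cells. The labels name no driver, deleted exon or number of animals, and an ASXL1 profile of Asxl1-/- cells was not analysed here. With 1 library per group no difference has a replicate check, the intervals cover counting error only, and the depth of the libraries is unknown because the lists hold coordinates alone.

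ASXL1 is a subunit of the deubiquitinase complex that it forms with BAP1, which removes ubiquitin from histone H2A, and its loss is known to disturb Polycomb silencing in blood-forming cells. Trimethylation of H3 at lysine 4 is typical of promoters in use, dimethylation spreads further to enhancers, and trimethylation at lysine 27 is laid down by Polycomb at silenced genes. In marrow stroma ASXL1 is studied because these cells support blood formation and give rise to bone and fat.

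The labelled cell type was set against marker genes by H3K4me3 within 1000 bp of a listed transcription start. Of 16 stromal, 10 leukocyte, 3 erythroid and 5 endothelial markers, 11, 6, 2 and 3 had a listed start. Over all autosomal protein-coding genes with a listed start, 59.8% had H3K4me3 there in Asxl1-/- cells and 60.5% in wild-type cells. Stromal markers had it at 9 of 11 genes in Asxl1-/- cells and at 10 of 11 in wild-type cells, where Lepr, a leptin receptor marking stroma in the intact marrow, lacked it. Leukocyte markers had it at 2 of 6 genes in Asxl1-/- cells and at 1 of 6 in wild-type cells, where Ptprc, Fcer1g, Ly6g, Itgam and Cd3e lacked it. Erythroid markers had it at 1 of 2 genes and endothelial markers at 1 of 3 in either genotype.

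Few of the unmarked islands lay over a promoter, and the promoters that did lie inside one were poor in CpG dinucleotides. Of the 31396 autosomal promoter windows of RefSeq on GRCm38.p6, which shares the coordinates of mm10, 28 lay wholly inside an unmarked island. A window runs from 250 bp before the start to 50 bp after it. The 28 windows belong to 27 genes, of which 5 are protein-coding (Apol8, Fam166b, Rxfp4, Trim72 and Fam209), and 23 of the windows are those of long noncoding RNAs. The next lines give 3 of these promoters, written 5′ to 3′ on the strand of the gene with every CG dinucleotide in capitals, because they show the CpG-poor letters found under ASXL1 without a mark. The promoter of Myh9, the heavy chain of non-muscle myosin, stands last for contrast, since it lies in another ASXL1 island while the 3′ end of the gene lies in an unmarked one.
Apol8 promoter, chr15:77756961-77757260, minus strand: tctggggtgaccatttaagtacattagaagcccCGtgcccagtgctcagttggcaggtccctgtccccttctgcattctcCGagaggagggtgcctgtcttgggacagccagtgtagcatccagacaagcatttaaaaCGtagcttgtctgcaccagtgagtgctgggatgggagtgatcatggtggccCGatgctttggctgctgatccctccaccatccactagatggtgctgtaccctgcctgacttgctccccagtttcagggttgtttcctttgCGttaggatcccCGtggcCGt
Rxfp4 promoter, chr3:88653093-88653392, minus strand: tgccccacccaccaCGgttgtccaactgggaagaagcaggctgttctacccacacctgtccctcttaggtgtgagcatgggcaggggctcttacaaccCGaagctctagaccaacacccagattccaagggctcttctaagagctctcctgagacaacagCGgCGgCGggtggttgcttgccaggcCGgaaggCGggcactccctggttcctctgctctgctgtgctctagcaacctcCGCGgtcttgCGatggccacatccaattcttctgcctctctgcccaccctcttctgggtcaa
Trim72 promoter, chr7:128004128-128004427, plus strand: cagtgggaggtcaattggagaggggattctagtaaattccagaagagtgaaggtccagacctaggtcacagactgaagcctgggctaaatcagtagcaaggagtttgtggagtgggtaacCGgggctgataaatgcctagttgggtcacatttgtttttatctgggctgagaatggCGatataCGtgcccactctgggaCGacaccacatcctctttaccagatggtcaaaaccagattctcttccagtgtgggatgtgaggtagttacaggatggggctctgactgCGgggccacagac
Myh9 promoter, chr15:77842126-77842425, minus strand: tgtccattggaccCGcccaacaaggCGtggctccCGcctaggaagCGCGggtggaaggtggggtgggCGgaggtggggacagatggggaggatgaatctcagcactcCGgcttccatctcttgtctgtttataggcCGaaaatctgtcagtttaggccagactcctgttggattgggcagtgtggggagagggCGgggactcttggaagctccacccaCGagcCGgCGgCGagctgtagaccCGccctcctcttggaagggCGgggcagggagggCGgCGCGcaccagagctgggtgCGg

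The promoter of Apol8, a gene of the apolipoprotein L family, held 7 CpG in 300 bp and an observed over expected CpG ratio of 0.301. That of Rxfp4, a receptor for a relaxin-family peptide, held 10, with a ratio of 0.383. That of Trim72, which acts in membrane repair in muscle, held 5, with a ratio of 0.273. Fam166b and Fam209 held 7 each. The 5 promoters lie inside islands chosen for having no wild-type H3K4me3, so its absence there is set by the choice. The Myh9 promoter held 19 CpG, with a ratio of 0.636.

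Over the 28 windows in unmarked islands the median was 4 CpG (95% interval 3 to 6), against 22 in the 11184 windows inside other ASXL1 islands of the same width limit and 7 in all autosomal windows. The median observed over expected ratio was 0.242 in unmarked islands, 0.791 in other ASXL1 islands and 0.389 in all windows. A ratio of 0.6 or more, the usual mark of a CpG island, was found in 0 of the 28 windows, which allows a share of up to 12.3%, and in 75.1% of the windows in other ASXL1 islands and 36.4% of all. The median GC content was 48.7% in unmarked islands, 62.0% in other ASXL1 islands and 53.0% in all windows. Most promoters in other ASXL1 islands were of the CpG-rich kind, and none of the 28 was. Of the 15878 other islands, 10498 had H3K4me3 without H3K27me3, while the 28 windows lie in islands chosen for having no mark. The CpG contrast is therefore not independent of the choice, and the part this plays was not tested. The sets also differed in the kind of gene. Protein-coding genes were 5 of the 27 in unmarked islands, 7794 of 9358 in other ASXL1 islands and 16457 of 25748 in all. The part this plays was not tested either. Promoters in islands with H3K4me2 only were not counted apart.

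The same 28 windows were searched for 4 motifs on both strands, each on its own, so that matches may overlap. TATAAA, the core of the TATA box, was in 10.7% of the windows in unmarked islands, 6.36% of those in other ASXL1 islands and 13.6% of all. TGANTCA, the site of AP-1 factors, was in 10.7% in unmarked islands, 5.02% in other ASXL1 islands and 7.84% of all. CANNTG, the E box, was in 89.3% in unmarked islands, 61.2% in other ASXL1 islands and 72.2% of all, and CCAAT was in 42.9%, 37.1% and 37.3% of the same sets. Each share of 10.7% rests on 3 windows, with an interval from 2.27 to 28.2% that holds the share of all promoters. The interval of the E box share, 71.8 to 97.7%, also holds the share of all promoters, though not the 61.2% of other ASXL1 islands.

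**Figure D1:**
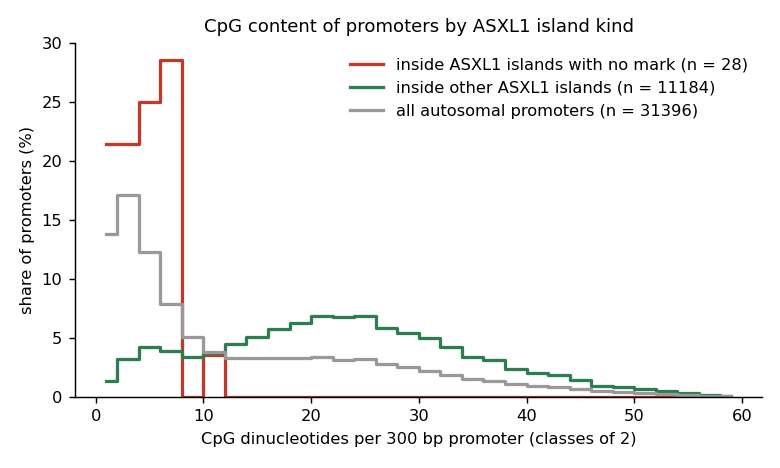
Share of 300 bp promoter windows (%, vertical axis) by their number of CpG dinucleotides in classes of 2 (horizontal axis), for windows inside unmarked ASXL1 islands (red, n = 28), inside other ASXL1 islands (green, n = 11184) and all autosomal windows (grey, n = 31396). The red line stays at or below 10 CpG, while the windows in other ASXL1 islands centre on 22.

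Of 919 microRNA hairpins, 3 lay inside unmarked islands, and their mature forms are shown because they are the named small RNA products of these stretches. The seed, bases 2 to 8, is in capitals, and the sequences are those of RefSeq.
mmu-miR-3962: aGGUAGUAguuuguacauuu
mmu-miR-3076-3p: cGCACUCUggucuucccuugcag
mmu-miR-7031-3p: aACCCUCUugcccucuccuag
mmu-miR-7031-5p: cCUGAGAGgccugaaggguggga
No seed was shared among them. The mature form of Mir3962 lay at chr1:194822035-194822054 in an island of 4800 bp without H3K4me2 in Asxl1-/- cells. That of Mir3076 lay at chr14:30572185-30572207 in the island of 18400 bp at Tkt, and the 2 arms of Mir7031 lay at chr5:121819209-121819229 and chr5:121819246-121819268 in the island of 9800 bp between Atxn2 and Sh2b3. The islands of Mir3076 and Mir7031 carried 2600 bp and 6200 bp of H3K4me2 in Asxl1-/- cells.

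The unmarked islands were narrower than the other ASXL1 islands. Their median width was 3400 bp (3200 to 3600), with quartiles at 2400 and 5000 bp, a range from 600 to 19800 bp and 3.12 Mb covered in all. The 15878 other islands under the limit had a median of 4800 bp, with quartiles at 3200 and 7200 bp. The median was 4800 bp for islands with H3K4me2 only, 4800 bp for those with H3K4me3 and no H3K27me3, and 4400 bp for those with H3K27me3. A narrow island has fewer bases with which to meet a mark, and the part this plays in the difference was not tested. Widths under 2000 bp made up 14.5% of the unmarked islands and 7.27% of the others. Widths of 10000 bp or more made up 4.87% of the unmarked islands and 12.5% of the others. Just inside the width limit stood islands of 19800 bp at Col6a1 and 19600 bp at chr16:66060801-66080400, and just outside it islands of 20000 bp at chr16:79788201-79808200 and 20400 bp in Cadm2.

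**Figure D2:**
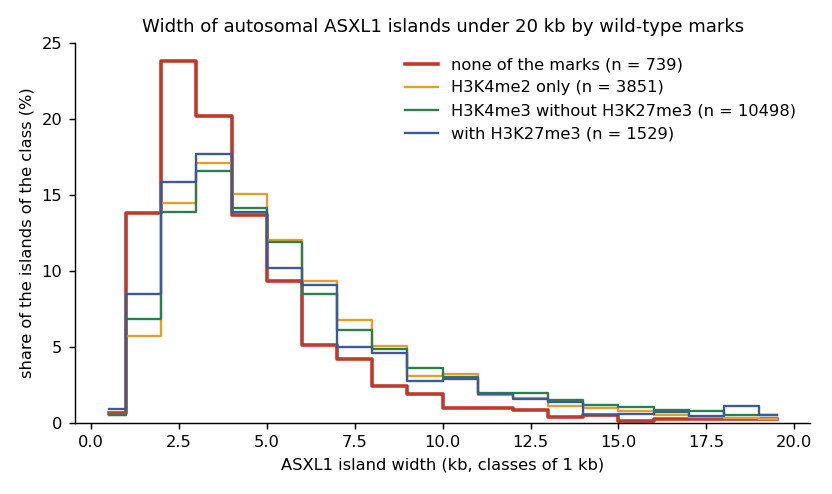
Share of islands (%, vertical axis) by width in classes of 1 kb (horizontal axis) for autosomal ASXL1 islands under 20 kb with no wild-type mark (red, n = 739), H3K4me2 only (n = 3851), H3K4me3 without H3K27me3 (n = 10498) and H3K27me3 (n = 1529). The red line peaks at 2 to 3 kb and lies below the other classes from 5 kb up to 10 kb.

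Among the 12 widest unmarked islands, most lay over the 3′ end of a gene or on chromosome 16 around Vgll3, Cadm2, Robo2 and Tmprss15. The widest, chr10:76698001-76717800, covered the 3′ end of Col6a1, a chain of the microfibril collagen VI. Next among those over a gene came 18400 bp at chr14:30558201-30576600 over the 3′ part of Tkt, the transketolase of the pentose phosphate pathway. Then came 17800 bp at chr15:77754401-77772200 over the 3′ end of Myh9. An island of 17200 bp lay within Pde8b, a cyclic AMP phosphodiesterase, and 1 of 15200 bp over the 3′ ends of Pcif1 and Zfp335. Of the remaining 7 of the 12 widest, 6 were on chromosome 16, and 1 of 14400 bp lay 43454 bp from Pdhx, a component of the pyruvate dehydrogenase complex.

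Most unmarked islands were near a mark without touching it, and the neighbour was usually H3K4me2. The median distance to the nearest wild-type island of any mark was 7200 bp (6600 to 8400). It was 8600 bp to H3K4me2, 30000 bp to H3K4me3 and 88000 bp to H3K27me3. H3K4me2 was the nearest mark for 613 islands (82.9%), H3K27me3 for 93 (12.6%) and H3K4me3 for 33 (4.47%). Equal distances were credited to H3K4me2 first, and such ties were not counted. The wild-type H3K4me2 list is also the longest, with 36048 islands against 17884 for H3K4me3 and 17712 for H3K27me3. A mark lay within 1000 bp of 82 islands (11.1%), of which 6 abutted a marked island on the grid, and within 5000 bp of 295 (39.9%). At the far end, 81 islands (11.0%) had no mark within 50000 bp and 37 (5.01%) none within 100000 bp. The absence of a mark is an absence of a called island, and signal under the caller's limit cannot be seen in these lists.

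Unmarked islands lay mostly inside genes but away from their ends. With 50% or more of its length between the ends of a gene, an island counted as inside it, and 411 unmarked islands (55.6%, 51.9 to 59.2) did. The share was 77.1% for the other ASXL1 islands, 62.4% for those with H3K4me2 only and 48.3% for all autosomal bases. Inside protein-coding genes it was 46.0% for unmarked islands, against 69.8% for the others and 40% of bases. Within 1000 bp of either gene end lay 18.7% of unmarked islands (15.9 to 21.7), against 63.6% of the others and 19.5% of those with H3K4me2 only. The table lists no start on chromosome 18, so the 22 unmarked islands there are left out of every value that uses starts, leaving 717. A listed start lay under 4.04% of unmarked islands (29 of 717), 50.8% of the others and 6.32% of those with H3K4me2 only. ASXL1 islands that meet a mark at a start are left out by the choice, which partly sets this low share. The median distance to a listed start was 28320 bp for unmarked islands (25159 to 33864). On these measures the unmarked islands stood nearer to the islands with H3K4me2 only than to those with H3K4me3. Over 50000 bp from a start lay 37.2% of the unmarked islands (33.7 to 40.9) and 29.2% of the islands with H3K4me2 only (27.8 to 30.7). The gene table gives the span of a gene only, so a place inside a gene was not divided into exon, intron or UTR.

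The host was most often a long gene. Taking the 1 gene that held most of each island, 338 islands had a protein-coding host, 66 a long noncoding RNA, 5 a pseudogene and 330 none. The 292 distinct protein-coding hosts had a median span of 106982 bp, against 17491 bp for all 20665 autosomal protein-coding genes. An unmarked island met 1.58% of all autosomal protein-coding genes. By span, it was 0.123% of protein-coding genes under 10 kb, 1.08% from 10 to 30 kb, 1.97% from 30 to 100 kb, 5.62% from 100 to 300 kb and 10.3% beyond 300 kb. A long gene offers more bases to meet.

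Within the host the islands leaned to the 3′ part, where the choice leaves out islands that meet a mark at the start. Over the 264 islands whose protein-coding host has a listed start, 5 equal parts of the gene, taken from 5′ to 3′, held 13.6%, 15.2%, 21.2%, 25% and 25% of the islands. The median place was 59.9% of the way along (54.1 to 65.5). The 1577 islands with H3K4me2 only had their median at 52.3% (50.5 to 54.1), and the same parts held 12.7%, 22.8%, 21.9%, 22.7% and 19.9%. The sets differed most in the second of these parts. In the first part the shares were 13.6% (9.74 to 18.4) for unmarked islands and 12.7% (11.1 to 14.4) for islands with H3K4me2 only, and the intervals overlapped.

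**Figure D3:**
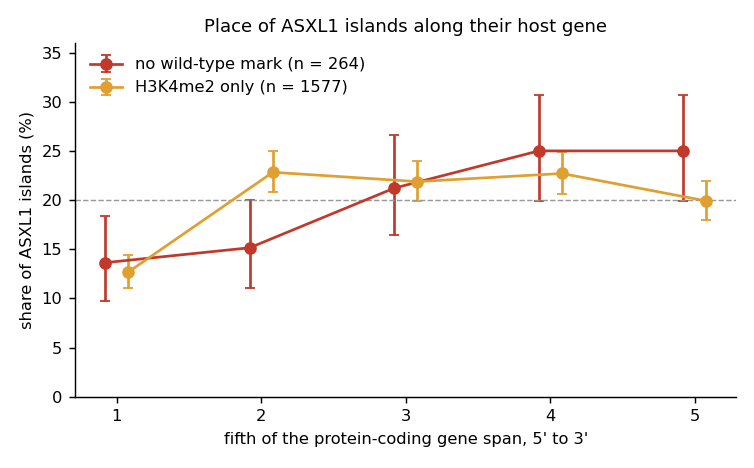
Share of ASXL1 islands (%, vertical axis) in each of 5 equal parts of their protein-coding host from 5′ to 3′ (horizontal axis), for unmarked islands (red, n = 264) and islands with H3K4me2 only (yellow, n = 1577), with 95% exact intervals for counting error and a dashed line at 20%. The unmarked islands run from 13.6% in the first part to 25% in the last.

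Gene 3′ ends met unmarked islands more often than 5′ ends did, a contrast that the choice of islands partly sets. In wild type 64.3% of protein-coding genes with a listed start had H3K4me2 there and 60.5% had H3K4me3. ASXL1 islands that met either mark were left out. Within 1000 bp of the 3′ end of a protein-coding gene with a listed start lay 42 of 717 unmarked islands (5.86%, 4.25 to 7.84), and within 1000 bp of a 5′ end 8 (1.12%). Islands with H3K4me2 only lay at a 3′ end in 5.06% and at a 5′ end in 1.36%, and those with H3K4me3 and no H3K27me3 in 12.7% and 57.7%. Among the 36 unmarked islands of 10000 bp or more, 8 (22.2%, 10.1 to 39.2) were at a 3′ end and 1 at a 5′ end. At 10 of the 42 the island met the 3′ ends of genes on both strands, as at Pcif1 and Zfp335, Nup188 and Sh3glb2, Pkd1 and Tsc2, Atxn2 and Sh2b3, and Bcl2l13 and Bid. Pkd1 and Tsc2, the genes of polycystin-1 and tuberin, end against each other inside 12000 bp at chr17:24590801-24602800. Nup188, a nuclear pore subunit, and Sh3glb2 share 12200 bp at chr2:30339201-30351400.

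The genes with such 3′ ends mostly had a marked start. Of the 51, 45 (88.2%, 76.1 to 95.6) had wild-type H3K4me3 within 1000 bp of the listed start, against 60.5% of all protein-coding genes, and 48 (94.1%) had an ASXL1 island there, against 51.4%. For the smallest of these genes, such as Rxfp4 and Fam209, that ASXL1 island is the unmarked one itself. Others in the set, named after their values were seen, were Tiparp, an ADP-ribosyltransferase, with 11400 bp, Lgals3, a galectin, with 8200 bp, Zfp36l1, which binds AU-rich messages, with 8000 bp, and Hmgcs1, an enzyme of sterol synthesis, with 6200 bp. Plaur, the urokinase receptor, had 4400 bp, Ltbp2, a matrix protein, 4000 bp, and the tropomyosins Tpm3 and Tpm1 3800 and 3400 bp. Tnc, the matrix protein tenascin, had 1800 bp.

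Starts of the host genes were set beside all genes in the same way. Of the 233 distinct hosts with a listed start, 187 (80.3%) had H3K4me3 there in Asxl1-/- cells, against 59.8% of all protein-coding genes, and 193 (82.8%, 77.4 to 87.4) in wild-type cells, against 60.5%. Hosts of H3K4me2-only islands had it at 84.6% in wild type, and when every gene was weighted by its span the share over all genes was 68.3%. An ASXL1 island was at the start of 182 hosts (78.1%), against 51.4% of all genes and 80.7% of the hosts of H3K4me2-only islands. H3K27me3 was at the start of 34 hosts (14.6%) in Asxl1-/- cells, against 20.5% of all genes, and of 49 (21.0%) in wild-type cells, against 23.1%. Weighted by span, the share over all genes was 29.0% in Asxl1-/- cells and 34.6% in wild-type cells, both above the shares of the hosts.

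Most hosts kept H3K4me3 at the start in Asxl1-/- cells, and fewer kept H3K27me3. H3K4me3 was missing in Asxl1-/- cells at 7 of 193 hosts that had it in wild type (3.63%), against 3.86% of all genes. H3K27me3 was missing at 21 of 49 (42.9%, 28.8 to 57.8), against 26.9% of all genes, and was found in Asxl1-/- cells alone at 6 of 184 (3.26%), against 4.7%. On the 11 autosomes where Asxl1-/- cells had more H3K4me3 length than wild type, H3K27me3 was missing at 4 of 20 hosts (20.0%), against 18.6% of all genes there. On the other 8 autosomes it was missing at 17 of 29 hosts (58.6%, 38.9 to 76.5), against 35.8% of all genes there.

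Up to 4 unmarked islands lay in 1 host. Cadm2, an immunoglobulin adhesion molecule of neurons, held 4 islands with 54.6 kb in all, beside 6 other ASXL1 islands. Robo2, a receptor for the guidance protein Slit, held 4 with 45.0 kb. Adcy2, an adenylyl cyclase, held 4 with 18 kb, Camk2d, a calcium and calmodulin dependent kinase, 4 with 11.4 kb, and Naaladl2 4 with 9.2 kb. None of these 20 islands had H3K4me2 in Asxl1-/- cells, where 18.1% of all unmarked islands did. The 5 hosts lie on chromosomes 3, 13 and 16, where the share over all unmarked islands was 3.53%, 5.33% and 10.0%. Pde8b held 3 islands with 22.4 kb, Lnx1, a ubiquitin ligase, 3 with 15.2 kb, Babam2, a subunit of a deubiquitinase complex, 3 with 15.0 kb, and Adamts16, a metalloproteinase, 3 with 7.2 kb. Pde4d, another cyclic AMP phosphodiesterase, held 2 with 14.2 kb beside 21 other ASXL1 islands. At the start of Adcy2 all 3 marks were present in wild type and none in Asxl1-/- cells, and Robo2 had H3K4me3 and H3K27me3 in wild type alone.

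Unmarked islands met 11 genes of 3 stromal lists, among them Fn1, Col6a1, Myh9 and Cd44. Over all autosomal genes the share met was 1.58% of the protein-coding ones and 0.961% of genes of every kind. Of stromal collagens and secreted matrix, 3 of 29 did so, namely Fn1 (fibronectin, 12800 bp), Col6a1 and Sparc (osteonectin, 6200 bp). Of actin cytoskeleton and adhesion genes 5 of 29 did, namely Myh9, Cd44 (the hyaluronan receptor, 11000 bp), Cald1 (caldesmon, 6800 bp), Tpm1 and Pdlim5 (2200 bp). Of mesenchymal transcription factors 3 of 25 did, namely Zeb2 (3200 bp), Foxp1 (3000 bp) and Tcf4 (1800 bp). Other ASXL1 islands met 23 of 29, 23 of 29 and 22 of 25 genes of the same lists. The median span in these 3 lists was 49.1, 28.8 and 134 kb, longer than the 17491 bp of all protein-coding genes. Fn1 also held the widest unmarked island outside chromosome 16, of 29200 bp at chr1:71608001-71637200, which the width limit leaves out.

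A smaller share of genes was met in the other lists, and the differences from the stromal lists were not tested. The intervals of the osteoblast, chromatin, long neuronal and Skint lists overlapped with that of each stromal list. Those of protocadherins and defensins overlapped with all but that of actin cytoskeleton and adhesion genes. For olfactory and vomeronasal receptors, zinc finger, microRNA and ribosomal protein genes the intervals lay below that of each stromal list. None of 23 osteoblast, adipocyte and chondrocyte genes was met, which allows a share of up to 14.8%, and other ASXL1 islands met 8 of them. None of 27 chromatin regulators was met, which allows up to 12.8%, and other ASXL1 islands met 26. Long neuronal and adhesion genes gave 2 of 30 (Macrod2 with 1600 bp and Dlg2 with 1800 bp), zinc finger genes 3 of 409 and microRNA genes 3 of 1093. None of 1420 olfactory receptors, 382 ribosomal protein genes, 83 defensins, 68 protocadherins or 11 Skint genes was met. Of 623 vomeronasal receptors 1 was, Vmn2r13, at chr5:109159001-109160600, and all 1600 bp of that island carried H3K4me2 in Asxl1-/- cells. Several of these lists hold short genes. The median span was 0.945 kb for olfactory receptors, 0.939 kb for vomeronasal receptors, 0.68 kb for ribosomal protein genes and 1.62 kb for defensins. Over all protein-coding genes under 10 kb the share met was 0.123%, so few or none would be met in such lists at that share.

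Most unmarked islands had no other unmarked island within 50000 bp, but most had an ASXL1 island of some kind. Another unmarked island lay within 50000 bp of 128 (17.3%, 14.7 to 20.2), and the median gap to the nearest was 517800 bp. The 15878 other islands, which are far more numerous, had another of their own set within 50000 bp in 77.1% of cases. Because of the unequal numbers, these shares do not tell which set is the more clustered. Whether unmarked islands lie closer together than an even spread would place them was not tested. An ASXL1 island of any kind lay within 50000 bp of 79.2% of unmarked islands and of 78.2% of the others, with median gaps of 12800 and 16800 bp. Joining unmarked islands less than 50000 bp apart gave 611 single islands, 45 pairs, 10 runs of 3 and 2 runs of 4, which were in Camk2d at chr3:126715201-126807200 and in Naaladl2 at chr3:24603001-24664600.

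Of the 524 stretches of 1 Mb with an unmarked island, 17 held 4 or more, with 74 islands in all, and 3 held 6. The first was chromosome 16 from 66 Mb, around Cadm2, with 83.0 kb of unmarked islands. The next was chromosome 15 from 62 Mb, with 40.4 kb, where 2 of the 6 lay in Pvt1, a noncoding RNA gene, and the nearest protein-coding gene was the growth regulator Myc, named after its values were seen, 167239 to 508639 bp away. The third was chromosome 2 from 137 Mb, with 23.2 kb, where 4 of the 6 had Jag1, a Notch ligand, as their nearest protein-coding gene, 318080 to 526680 bp away. The stretches held 1, 0 and 2 named protein-coding genes in this order. A mark in Asxl1-/- cells was found at 1 of the 6 islands on chromosome 15, at 1 of the 6 on chromosome 2 and at none on chromosome 16.

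Chromosome 16 held 2 stretches of unusually wide unmarked islands. From 65 to 68 Mb there were 11, with a median width of 13200 bp and 143.8 kb in all, and 3 more over the width limit. None of the 11 had a mark in Asxl1-/- cells. From 73 to 81 Mb there were 9, with a median of 8200 bp and 79.6 kb in all, and 6 more over the limit, the widest of 61400 bp at chr16:79984801-80046200 and 59800 bp in Robo2 at chr16:75032401-75092200. Of the 9, 1 had a mark in Asxl1-/- cells. The 20 islands of both stretches had a median width of 12200 bp (8200 to 14400), against 3400 bp for the 719 elsewhere. Histone marks were sparse there in Asxl1-/- cells. In the first stretch H3K4me2 had 4 islands in Asxl1-/- cells and 13 in wild-type cells, and H3K27me3 had 0 in Asxl1-/- cells and 16 in wild-type cells. In the second stretch H3K4me2 had 27 islands in Asxl1-/- cells and 55 in wild-type cells, and H3K27me3 had 2 in Asxl1-/- cells and 10 in wild-type cells.

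By chromosome the density of unmarked islands ran from 0.0816 per Mb on chromosome 19 (5 islands) to 0.623 per Mb on chromosome 13 (75 islands), a ratio of 7.64 (3.13 to 24.2). Among the wider 50% of the islands the ratio was 18.3, and with no wild-type island within 1000 bp it was 11.0. The other ASXL1 islands varied by a ratio of 2.36. Chromosome 3 had 0.531 per Mb (85 islands) and chromosome 16 0.510 (50 islands), and chromosomes 3, 13 and 16 together held 28.4% of the unmarked islands (25.2 to 31.8), against 16.2% of the others (15.7 to 16.8). Chromosomes 3 and 13 were also those with the least length of each mark in Asxl1-/- cells relative to wild type, with log2 ratios on chromosome 3 of -0.91 for H3K4me2, -0.51 for H3K4me3 and -2.17 for H3K27me3, and on chromosome 13 of -0.70, -0.34 and -1.03. On chromosome 16 they were -0.32, -0.08 and -0.45. On the 11 autosomes with more H3K4me3 length in Asxl1-/- cells, 3.39% of ASXL1 islands were unmarked (3.02 to 3.8), and on the other 8 autosomes 5.54% (5.06 to 6.06). Across the 19 autosomes the share of unmarked islands and the log2 ratio of H3K4me3 length had a Pearson r of -0.66 and a Spearman rho of -0.62, given as a description, since all autosomes share the same libraries. The ASXL1 and wild-type lists that chose the islands did not involve Asxl1-/- cells, and the part that chromosome-wide differences between the libraries have in these counts was not tested.

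**Figure D4:**
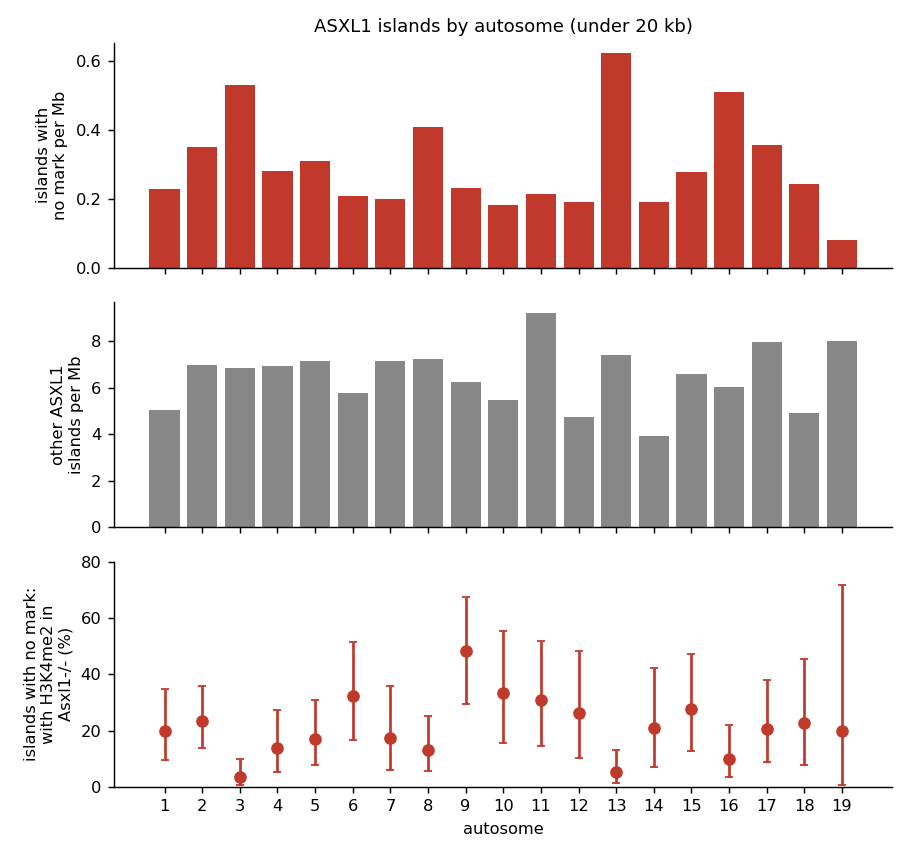
For each autosome (horizontal axis), the number of unmarked ASXL1 islands per Mb (top), of other ASXL1 islands under 20 kb per Mb (middle), and the share of the unmarked islands with H3K4me2 in Asxl1-/- cells (%, bottom, with 95% exact intervals for counting error). Chromosomes 13, 3 and 16 stand highest at the top, at 0.623, 0.531 and 0.510 per Mb, and low at the bottom, at 5.33%, 3.53% and 10.0%.

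In Asxl1-/- cells most of these islands again had no mark, and where a mark was present it was mostly H3K4me2. Because the islands were chosen for lacking marks in wild type, only a gain was possible. H3K4me2 met 134 islands (18.1%, 15.4 to 21.1), and the share over all ASXL1 islands without wild-type H3K4me2 was 18.2%, a set of 795 that holds these 739. Of the 56 in that set with another wild-type mark, 11 (19.6%, 10.2 to 32.4) had it. H3K4me3 met 2 (0.271%, 0.0328 to 0.974), against 3.89% of the ASXL1 islands without it in wild type. That set of 4811 also holds the 739, and 3851 of it had wild-type H3K4me2 only. Without the 739 the share was 4.54%. H3K27me3 met 30 (4.06%, 2.76 to 5.74), against 3.01% of the ASXL1 islands without it in wild type, or 2.95% without the 739. Any mark was found at 163 (22.1%, 19.1 to 25.2), where 86% of all ASXL1 islands under the width limit had one, and 576 (77.9%) had none in either genotype. In 2 islands H3K4me2 and H3K27me3 were both present, and in 1 H3K4me2 and H3K4me3.

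The same choice made from the Asxl1-/- lists gave more islands, and a larger share of them had a mark in the other genotype. Of the ASXL1 islands under the width limit, 2323 had no mark in Asxl1-/- cells, and 1747 of these (75.2%, 73.4 to 76.9) had one in wild-type cells. H3K4me2 was there in 74.2%, H3K4me3 in 13.5% and H3K27me3 in 2.20%. ASXL1 was mapped in wild-type cells, and its islands were more often without a mark in the lists of the other genotype.

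The H3K4me2 of Asxl1-/- cells covered more of the unmarked islands than of the surrounding genome. It covered 9.68% of their bases, against 1.13% of the autosomal bases outside every wild-type island of the 3 marks. Since unmarked islands are close to marks, bases were also taken by distance. Within 5000 bp of a wild-type island it covered 10.5% of the bases of unmarked islands and 4.20% of the bases outside every ASXL1 island. From 5000 to 50000 bp it covered 9.82% in unmarked islands and 0.931% outside ASXL1 islands. Beyond 50000 bp it covered 7.07% in unmarked islands and 0.0920% outside ASXL1 islands. In unmarked islands the share stayed at 7.07% or more in each class of distance, and outside ASXL1 islands it was lowest beyond 50000 bp. For H3K27me3 the order was the other way. It covered 1.98% in unmarked islands and 9.79% outside ASXL1 islands within 5000 bp of a wild-type island, and 3.71% in unmarked islands and 5.50% outside from 5000 to 50000 bp. Beyond 50000 bp it covered none of the 336800 bp of unmarked islands and 0.886% outside. H3K4me3 covered 0.0832% of their bases, against 0.242% of the bases outside wild-type islands. By distance it covered 0.0296% of their bases and 1.21% outside ASXL1 islands within 5000 bp, and 0.114% of their bases and 0.0427% outside from 5000 to 50000 bp, where 1 island of 2400 bp makes up the whole. Beyond 50000 bp it covered none of their bases and 0.0134% outside.

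**Figure D5:**
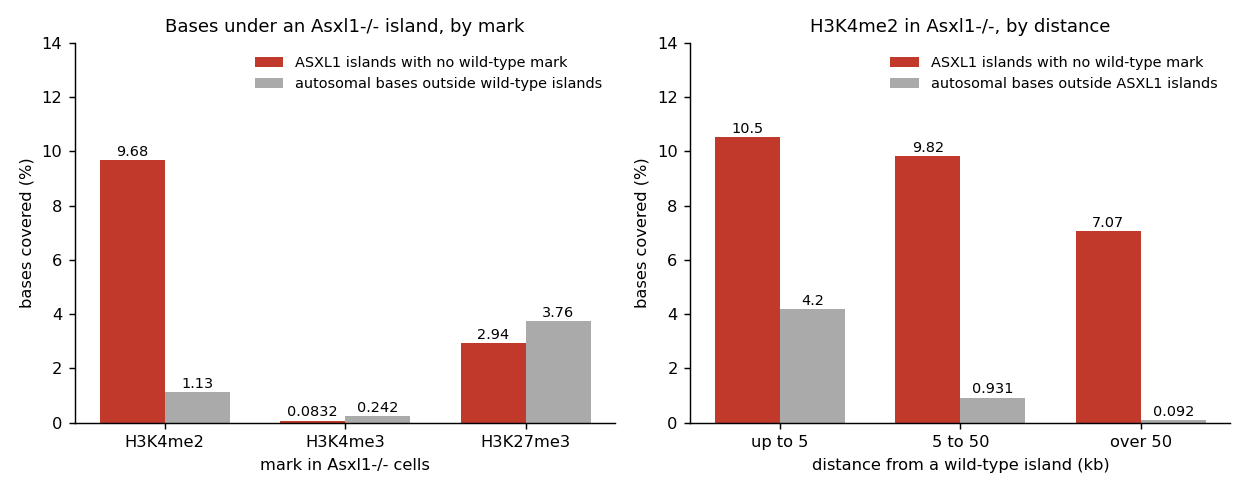
Bases under an Asxl1-/- island (%, vertical axes) in ASXL1 islands with no wild-type mark (red) and in other autosomal bases (grey), by mark on the left and for H3K4me2 by distance from the nearest wild-type island (kb) on the right, with 1 library per mark and no error bars. H3K4me2 covered 9.68% against 1.13% on the left, and 10.5%, 9.82% and 7.07% against 4.20%, 0.931% and 0.0920% on the right.

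Most of this H3K4me2 was in islands of its own. At 131 of the 134, an Asxl1-/- H3K4me2 island that met no wild-type H3K4me2 island lay on the ASXL1 island, and at 5 an Asxl1-/- island reached in from a wild-type place. The median length covered was 1800 bp, and 72 islands (9.74%) were covered over 50% or more of their length. The share of islands with H3K4me2 was 17.1% inside protein-coding genes and 18.9% outside genes. It was 19% with a wild-type mark within 5000 bp, 18.5% from 5000 to 50000 bp and 13.6% beyond (7.0 to 23.0), so the intervals overlapped. Islands with it had a median width of 4000 bp (3400 to 4600) and those without it 3400 bp (3000 to 3600).

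The gain varied by chromosome. On the 11 autosomes with more H3K4me3 length in Asxl1-/- cells, 27.5% of unmarked islands (22.4 to 33.1) had H3K4me2, and on the other 8 autosomes 12.2% (9.30 to 15.5). It was 48.3% on chromosome 9 (14 of 29), 33.3% on chromosome 10 (8 of 24) and 32.3% on chromosome 6 (10 of 31), and 3.53% on chromosome 3 (3 of 85) and 5.33% on chromosome 13 (4 of 75). The bases outside wild-type islands moved in the same direction, with 1.46% covered on the first set of autosomes and 0.699% on the second. In unmarked islands the covered bases were 16.1% on the first set and 5.86% on the second, so the unmarked islands stood above the rest of the genome in both.

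The largest gain of H3K4me2 was at Myh9, where Asxl1-/- islands covered 14800 of 17800 bp (83.1%) of the island that holds the 3′ end of the gene and the start of Apol8. At Sh3glb2 it covered 8200 of 12200 bp. At Sh2b3, an adaptor that restrains cytokine signalling, H3K4me2 covered 6200 of 9800 bp. Only part of this lay under the island of 22000 bp at chr5:121818001-121840000, which reached a wild-type place. At Pmepa1, a target and inhibitor of TGF-beta signalling, it covered 6000 of 6400 bp. In Sparc it covered 5200 of 6200 bp, under an island of 34400 bp, and in Egfr, the epidermal growth factor receptor, 5000 of 5800 bp. Outside genes, 5600 bp were covered 162180 bp from Dusp10, a phosphatase of stress kinases, and 5400 bp at 11080 bp from Pofut2, an O-fucosyltransferase. Each of these islands had no H3K4me2 called in wild type, with the nearest wild-type H3K4me2 island 1800 to 32400 bp away.

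H3K27me3 was gained at the widest unmarked island. Over the 3′ end of Col6a1, Asxl1-/- H3K27me3 covered 13400 of 19800 bp, 99200 bp from the nearest wild-type H3K27me3, while the start of the gene had wild-type H3K4me3. In Glis1, a zinc finger transcription factor, it covered 7600 of 9000 bp, and near Col4a1, a basement membrane collagen, 6600 of 7000 bp at 31622 bp from the gene. It covered all 5400 bp of an island 86102 bp from Lrig1, all 5000 bp of 1 at 40876 bp from Ackr3, an atypical chemokine receptor, and all 4400 bp of 1 in Itga11, a collagen-binding integrin. An island of 94400 bp reached over 4400 bp near Syne3, and 5400 of 6000 bp were covered 75711 bp from Mpp7. Of the 30 islands, 22 had an H3K27me3 island of their own and 8 lay under one that extended from a wild-type place. The median distance to wild-type H3K27me3 was 24200 bp for the 30 and 94600 bp for the 709 without it.

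H3K4me3 was gained at 2 islands. At chr2:173376001-173378400, 99269 bp from Pmepa1, it covered all 2400 bp, and this island also had H3K4me2 in Asxl1-/- cells. Near Pnrc1 it covered 200 of 2800 bp at the edge of an island of 8600 bp.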

How the data were processed

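ASXL1 was mapped in wild-type cells and 3 histone marks in Asxl1-/- and wild-type cells, with 7 island lists for 8 samples. The input library was not analysed here. Per the submitters' processing notes, the build was mm10, BWA was used for alignment and SICER 1.1 for calling islands. Not given in the sources used here are the BWA version, the calling parameters and the control. The authors' deposited lists hold the coordinates of each island on a 200 bp grid, with no count, score or p-value, so the depth is unknown, and coordinates are given 1-based.

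From these lists, overlaps of 1 bp, gaps and covered bases were computed with Python 3.11.15, numpy 2.4.6, pandas 2.3.3 and scipy 1.17.1, with matplotlib 3.10.9 for the plots. The choice of islands was checked with bedtools 2.31.1, which found 739 of 739. To check the code, the wild-type mark islands over 200 marked ASXL1 islands were removed from the lists. The rule then found 200 of 200, a result fixed by construction that checks the code alone. Gene spans, promoter windows and microRNAs came from RefSeq tables of GRCm38.p6. The start table covers 16457 of 20665 autosomal protein-coding genes, with none on chromosome 18. A list of histone genes matched no symbol. Shares carry 95% exact Clopper-Pearson intervals and medians carry order-statistic intervals, for counting error only. No test was made, since each group is 1 library.

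The islands, gene lists and rules were chosen with earlier results of these data known. Named genes are those at the 12 widest islands, the 12 hosts with most islands, the 8 islands with most covered bases per mark in Asxl1-/- cells, the 6 densest stretches of 1 Mb and up to 6 genes of each list, passing over clone names. Others are said to be chosen after their values were seen, apart from genes whose 3′ or 5′ end or promoter the text describes, which were also chosen so. Alternatives covered the overlap, distance and width rules, the chromosomes, the gene set and the lengths of the lists.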

Additional observations from a re-analysis of the deposited data

How the results depend on the processing

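Of 94 values under 14 other settings, 77 stayed within their counting interval or within 1.5 times the count. Requiring no wild-type island within 1000 bp gave a median distance of 9200 bp. Adding the X chromosome gave a density ratio of 26.6. The wider 50% of islands, 364 in number, had a median width of 5200 bp, 22.8% at a gene end, 14% near another unmarked island, and 21.4%, 0% and 26.1% with H3K4me2, H3K4me3 and any mark in Asxl1-/- cells. When Asxl1-/- islands had to cover 50% of the island, H3K4me2 was at 9.74%, H3K27me3 at 2.57% and any mark at 12.3%. With protein-coding genes only, 46.0% lay inside a gene and 8.53% at a gene end. A gene-end window of 5000 bp gave 35.5%. Gaps of 10000 and 200000 bp gave 6.09% and 37.1% near another unmarked island. The density ratio was 18.3 among the wider 50% and 11.0 with no wild-type island within 1000 bp, both inside its wide counting interval (3.13 to 24.2). Without chromosome 13, the densest, with up to 10% of an island in a mark, with no width limit, and without both stretches of chromosome 16 (a setting chosen after seeing the data), no value left its interval, though H3K4me3 in Asxl1-/- cells was 0.523% with up to 10% in a mark, against 0.271%. On the 9 autosomes nearest the median genotype ratio and with lists cut to equal length the 4 shares of marks in Asxl1-/- cells were run, and they stayed in their intervals, with H3K4me3 at 0.805% in equal lists. The cause was not tested beyond what each setting changes by construction. No paired analysis was possible because each group is 1 library. The lists give no depth, so an island missing from a list may lie just under the caller's limit.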
